A study of Homo sapiens with 49 samples.

Results

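Untreated cells of 2 human neuroblastoma models that both carry high MYCN were compared at the level of polyadenylated RNA: BE(2)-C without doxycycline (3 libraries) and SHEP-21N at 0 h of doxycycline (2 libraries). The BE(2)-C cells carry a tetracycline-inducible hairpin against TWIST1 that had not been induced, and grew in DMEM with tetracycline-free serum. In SHEP-21N a TET-off system holds MYCN on until doxycycline is added, and these cells grew in RPMI with tetracycline-free serum. Each model is 1 established line, no label says whether libraries came from separate cultures, and line, construct, medium and library batch cannot be told apart. Of 49 samples in the series, 38 have columns in the tables used here: 18 of BE(2)-C and 20 of SHEP-21N, the untreated libraries among them. Rows of the 2 tables were joined by gene symbol and a gene was kept where its mean reached 1 FPKM (fragments scaled to transcript length and to the library's output) in either line: 12762 of 23621 genes met that rule, 10058 of them in both lines, 1246 only in BE(2)-C and 1458 only in SHEP-21N.

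Neuroblastoma arises from the sympathoadrenal lineage of the neural crest, and cell lines fall along an axis between an adrenergic state and a mesenchymal state. Adrenergic cells are held by transcription factors such as PHOX2A, HAND2 and GATA3 and make the enzymes and granule proteins of catecholamine-secreting cells. Mesenchymal cells resemble migratory neural crest or mesenchymal precursors, use factors such as PRRX1, TWIST2 and AP-1 subunits, and make matrix, actin-binding and adhesion proteins. BE(2)-C comes from a tumour with amplified MYCN, and SHEP-21N from a line of flat, substrate-adherent cells without that amplification.

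Promoters of 4 genes that stand at opposite ends of the comparison are shown first. The motif marked in CTGF and ANKRD1 belongs to the TEAD factors, whose own genes are reported further on. No list was made for the factors of the motif marked in CHGA and DBH. CHGA (chromogranin A) and DBH (dopamine beta-hydroxylase) stood high in BE(2)-C; CTGF (now CCN2) and ANKRD1, both textbook targets of YAP and TEAD, stood high in SHEP-21N. The sequences run 5′ to 3′ over the 250 bases before the RefSeq start on GRCh38.p14: chr14:92922900-92923149 (plus strand) for CHGA, chr9:133636113-133636362 (plus strand) for DBH, chr6:131951373-131951622 (minus strand) for CTGF and chr10:90921088-90921337 (minus strand) for ANKRD1. In the first pair capitals mark the core of a cyclic AMP response element (TGACGT or its complement ACGTCA), and in the second pair the TEAD motif (GGAATG or its complement CATTCC).
CHGA: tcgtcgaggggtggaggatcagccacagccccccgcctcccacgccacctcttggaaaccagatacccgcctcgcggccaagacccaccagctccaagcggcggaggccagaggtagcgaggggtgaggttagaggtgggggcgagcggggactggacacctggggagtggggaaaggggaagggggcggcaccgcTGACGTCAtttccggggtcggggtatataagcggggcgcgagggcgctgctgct
DBH: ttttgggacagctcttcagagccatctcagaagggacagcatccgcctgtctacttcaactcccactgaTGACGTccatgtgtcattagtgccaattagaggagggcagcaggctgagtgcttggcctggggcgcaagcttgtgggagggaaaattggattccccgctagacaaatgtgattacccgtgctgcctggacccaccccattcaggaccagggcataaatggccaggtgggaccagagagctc
CTGF: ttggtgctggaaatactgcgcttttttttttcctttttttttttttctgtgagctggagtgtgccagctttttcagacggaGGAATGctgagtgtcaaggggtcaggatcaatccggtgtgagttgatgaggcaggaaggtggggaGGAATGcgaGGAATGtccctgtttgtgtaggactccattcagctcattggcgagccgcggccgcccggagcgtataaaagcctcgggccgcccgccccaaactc
ANKRD1: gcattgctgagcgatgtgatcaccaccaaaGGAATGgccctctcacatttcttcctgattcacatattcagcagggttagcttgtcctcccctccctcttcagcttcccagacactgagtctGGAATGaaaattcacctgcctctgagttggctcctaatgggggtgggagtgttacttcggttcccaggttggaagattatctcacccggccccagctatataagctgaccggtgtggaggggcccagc
The 2 matches in CHGA overlap, starting at -54 and -52 from the RefSeq start, and the match in DBH starts at -181. CTGF holds 3 TEAD matches, at -169, -104 and -95, and ANKRD1 holds 2, at -220 and -128. Of all 35116 promoters of this length, 7.10% held the response element core and 11.9% the TEAD motif on either strand. The response element core stood in 8.60% of promoters of genes called higher in BE(2)-C, 7.29% of those called lower and 9.49% of all that met the rule. The TEAD motif stood in 9.06% of promoters of genes called higher, 11.1% of those called lower and 9.63% of all that met the rule. These matches describe letters, not bound sites.

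Every value below is an unnormalised FPKM of 1 library, in the order 0, 1, 2 for BE(2)-C and 1, 2 for SHEP-21N (the numbers at the end of the column names). The 2 tables had been scaled separately, each library within 2% of its table's average, so no p-value is given for any difference between the lines. A gene was called higher or lower where the libraries of the lines did not overlap and the difference of mean log2(FPKM + 1), BE(2)-C minus SHEP-21N, was at least 1 in size; the added 1 understates the difference of low genes. The depth behind each value is unknown, since read numbers cannot be taken from FPKM. As a description over genes, which are not independent, the log2 values of BE(2)-C libraries correlated with Pearson's r from 0.982 to 0.994, those of SHEP-21N with 0.990, and those of libraries from different lines with 0.865 to 0.880.

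BE(2)-C library 1 stood furthest from the other untreated libraries. Its summed FPKM was 1028220, against 736423 and 792122 in the other BE(2)-C libraries and 889182 and 946073 in SHEP-21N. Genes were put in 5 equal classes by transcript length. In the class with the shortest transcripts its values lay 0.23 (log2) above the table's mean at the median, and in the class with the longest -0.33 from it; in the other 17 BE(2)-C libraries these medians ran from -0.05 to 0.04 and from -0.05 to 0.09. The difference between lines moved with transcript length in the same comparison, with medians of -0.04 in the shortest class and 0.13 in the longest, or -0.12 and 0.27 without that library. SHEP-21N library 2 leaned the same way but less, at 0.10 from its own table's mean in the shortest class and -0.13 in the longest. SHEP-21N library 1 stood at 0.04 and -0.03. The part of length in single genes was not tested. Counts were made again without BE(2)-C library 1 and with the median of each of 10 length classes taken off.

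**Figure D1:**
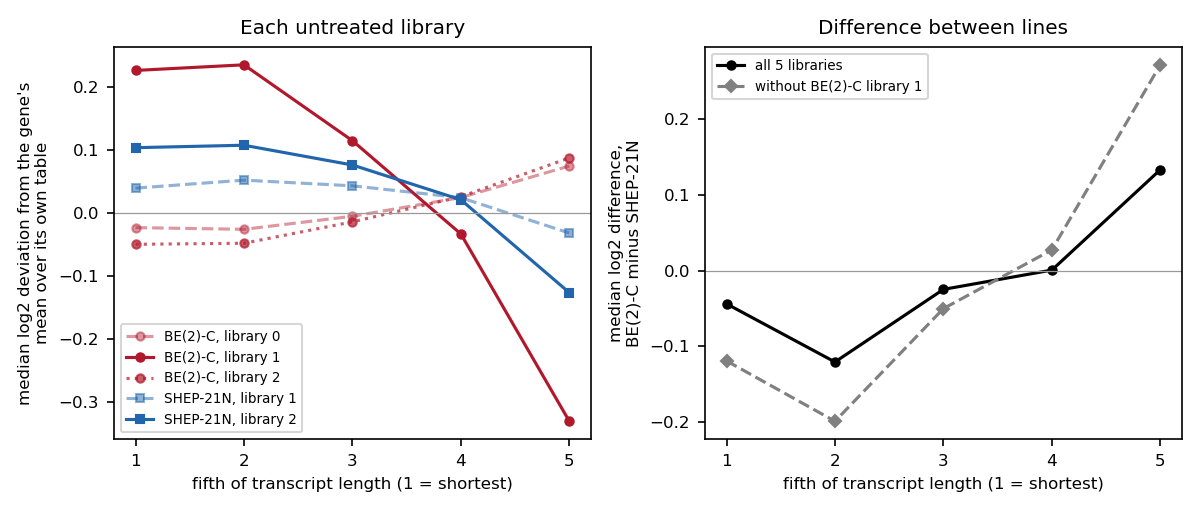
Left, median log2 deviation of each untreated library from each gene's mean over its own table, by class of transcript length (1 is the shortest of 5; 9492 genes at 1 FPKM or more in both lines); circles are BE(2)-C and squares SHEP-21N. Right, median log2 difference between the lines with all 5 libraries and without BE(2)-C library 1, which on the left runs from 0.23 in the shortest class to -0.33 in the longest.

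Across the 12762 genes, 2209 were called higher in BE(2)-C (17.3%) and 2417 lower (18.9%), together 36.2%, with a median difference of -0.04. The counts given for every list below stand beside these shares. Among the 10058 genes at 1 FPKM or more in both lines, 1264 were higher and 1274 lower. A gene that met the rule only through the line where it is high had to differ, and such genes made up 945 of the higher calls and 1143 of the lower calls. Listed at 0 in both SHEP-21N libraries were 255 genes, 89 of them at 10 FPKM or more in BE(2)-C; listed at 0 in all 3 BE(2)-C libraries were 330 genes, 126 of them at 10 FPKM or more in SHEP-21N. On the authors' spike-in scale the median difference was 0.13, and 2666 genes were higher and 2096 lower.

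The largest differences toward BE(2)-C were in neuroendocrine and neuronal genes. CHGA, the main core protein of catecholamine granules, stood at 1672, 2393 and 1654 FPKM in BE(2)-C, against 0 and 0.0280 FPKM in SHEP-21N. DLK1, a membrane protein with Notch-ligand-like repeats that is found on chromaffin-lineage cells, stood at 1304, 1917 and 1335 FPKM in BE(2)-C and was listed at 0 in SHEP-21N. Both genes were abundant in every BE(2)-C library and at or near 0 in both SHEP-21N libraries. In bulk RNA, fewer cells of a kind and less RNA per cell cannot be told apart. STMN2, a microtubule regulator of growing neurites, stood at 472, 497 and 449 FPKM in BE(2)-C and was listed at 0 in SHEP-21N, as was HMP19 (now NSG2), a neuronal vesicle protein, at 371, 405 and 357 FPKM in BE(2)-C. VIP, a neuropeptide, stood at 294, 269 and 282 FPKM in BE(2)-C, against 0.0525 and 0.0373 FPKM in SHEP-21N. The 12 largest differences further held NEFM (a neurofilament subunit), CYGB (cytoglobin), RGS5 (a regulator of G protein signalling), PHOX2A, DDC and HAND1.

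The largest differences toward SHEP-21N were in keratins, annexin, interferon-induced membrane proteins and germline antigens. IFITM3, a membrane protein that restricts virus entry, stood at 0.231, 0 and 0 FPKM in BE(2)-C, against 639 and 677 FPKM in SHEP-21N (log2 difference -9.26). ANXA1, a phospholipid-binding protein, stood at 0, 0 and 0.0376 FPKM in BE(2)-C and at 607 and 619 FPKM in SHEP-21N (-9.24). KRT18 stood at 0.0288, 0.0942 and 0.0369 FPKM in BE(2)-C, against 395 and 459 FPKM in SHEP-21N, and its filament partner KRT8 at 0.308, 0.360 and 0.197 FPKM, against 473 and 543 FPKM. All 4 genes were near 0 in each BE(2)-C library and among the abundant RNAs of SHEP-21N. ALDH1A1 (a retinaldehyde dehydrogenase), CYR61, TRIP6 (a LIM-domain adhesion protein), CTAG2, IFITM2, MAGEA6 and MAGEA3 were also among the 12. The IFITM, MAGEA and CTAG genes have near-identical copies, so the split of reads among copies is uncertain, although each copy named here was called lower in BE(2)-C.

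**Figure D2:**
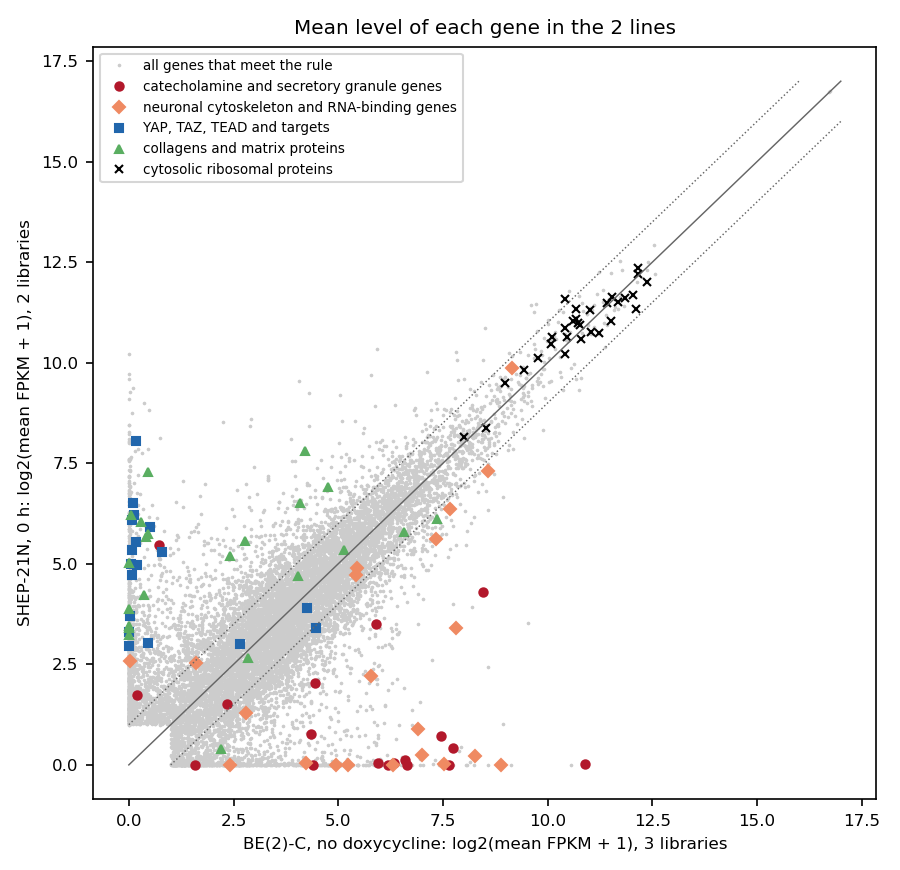
Mean level of each of 12762 genes in BE(2)-C (x axis, 3 libraries) and SHEP-21N (y axis, 2 libraries), as log2(mean FPKM + 1); the dotted lines mark a difference of 1. Many catecholamine and neuronal genes lie along the lower edge, many YAP, TEAD and matrix genes along the left edge, and cytosolic ribosomal proteins along the diagonal.

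The adrenergic transcription factors were higher in BE(2)-C with 2 exceptions. Of 21 in the list 20 met the rule, 10 of them through BE(2)-C alone and 1 through SHEP-21N alone; 18 were called higher and 2 lower, with a median difference of 3.09, beside -0.04 over all genes. PHOX2A, a homeodomain factor of autonomic neurons, stood at 178, 264 and 188 FPKM in BE(2)-C and was listed at 0 in SHEP-21N. TFAP2B and ZNF536 were likewise listed at 0 in both SHEP-21N libraries, with 29.4 to 34.2 and 3.65 to 6.23 FPKM in BE(2)-C. HAND1 stood at 222, 268 and 217 FPKM in BE(2)-C, against 0.331 and 0.202 FPKM in SHEP-21N. GATA3 stood at 63.1, 59.2 and 61.4 FPKM in BE(2)-C, against 0.569 and 0.638 FPKM in SHEP-21N. EYA1, KLF13, HEY1, KLF7 and DACH1 were also called higher, with log2 differences of 4.33, 3.16, 3.09, 1.78 and 1.28.

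A second set of adrenergic factors was present in both lines. HAND2, a bHLH factor of sympathetic neurons, stood at 209, 243 and 222 FPKM in BE(2)-C and still at 41.3 and 45.4 FPKM in SHEP-21N (log2 difference 2.35). GATA2 stood at 294, 293 and 295 FPKM in BE(2)-C, against 14.1 and 14.2 FPKM in SHEP-21N (4.28). TBX2, ISL1, PBX3 and SIX3 stood at 3.87 FPKM or more in both SHEP-21N libraries and were called higher in BE(2)-C by 3.09, 2.76, 1.39 and 1.35. SHEP-21N thus had part of this list at or near 0 and another part at a lower level than BE(2)-C. The 2 members lower in BE(2)-C were SOX11, at 0.0411, 0.0537 and 0.0632 FPKM against 5.04 and 5.35 FPKM in SHEP-21N, and SATB1, at 3.81, 2.36 and 4.16 FPKM against 9.09 and 8.54 FPKM. SATB1 was no longer called without BE(2)-C library 1 (difference -0.98). INSM1, a zinc-finger factor of neuroendocrine cells, was under 0.1 FPKM in all 5 libraries.

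**Figure D3:**
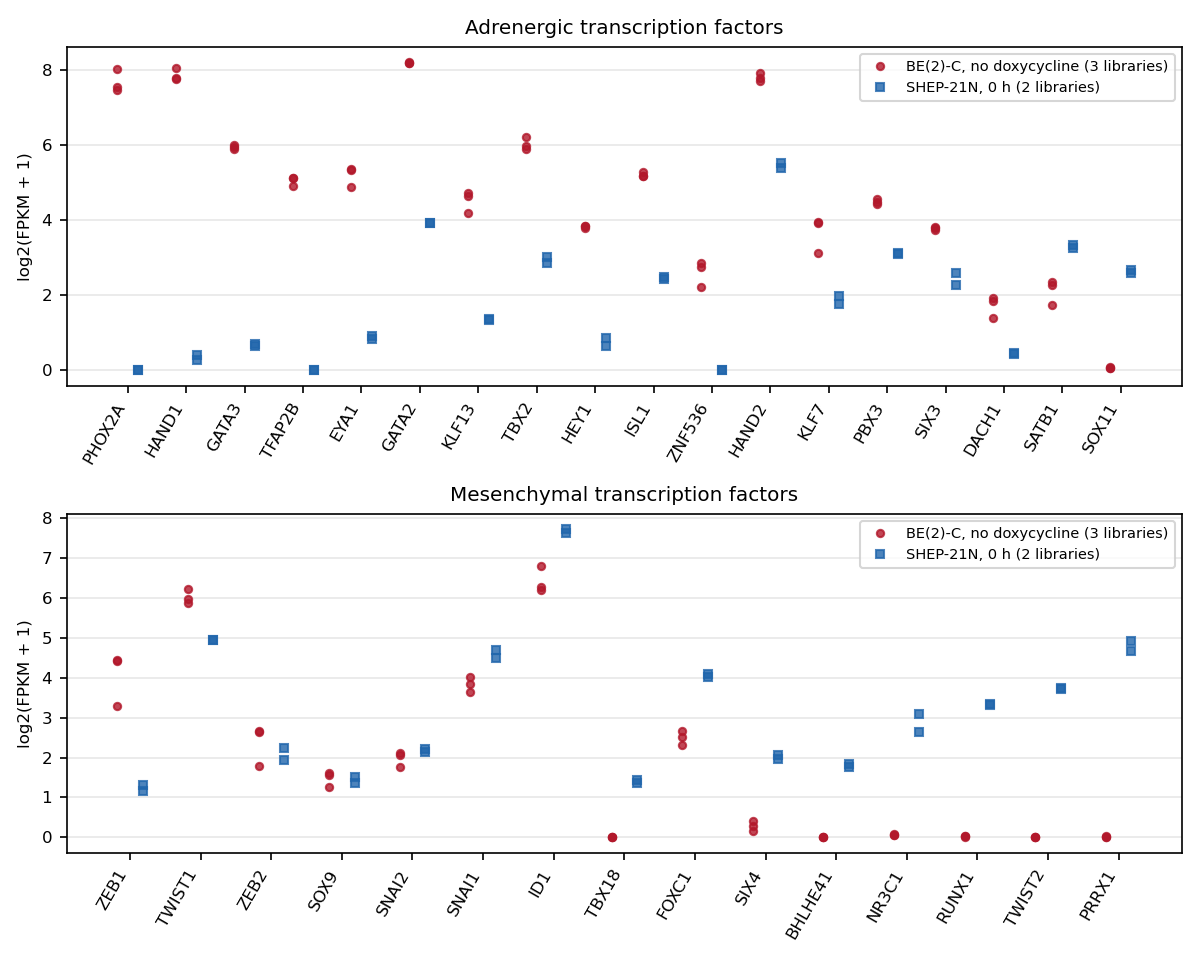
Levels of adrenergic (top) and mesenchymal (bottom) transcription factors that met the rule, as log2(FPKM + 1) on the y axis; each point is 1 library, red circles left for BE(2)-C and blue squares right for SHEP-21N. SOX11 and SATB1 at the right of the upper panel, and ZEB1 and TWIST1 at the left of the lower one, go against the rest of their panels.

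Genes of catecholamine synthesis, uptake and storage were higher in BE(2)-C. Of 20 in the list 18 met the rule, 12 through BE(2)-C alone and 2 through SHEP-21N alone, and 15 were higher and 2 lower, with a median difference of 5.13. TH, the rate-limiting enzyme of catecholamine synthesis, stood at 49.2, 81.4 and 51.3 FPKM in BE(2)-C, against 0.0450 and 0.0160 FPKM in SHEP-21N. DDC, the next enzyme, stood at 188, 226 and 183 FPKM and was listed at 0 in SHEP-21N, and DBH, which makes noradrenaline, stood at 88.9, 110 and 89.4 FPKM in BE(2)-C, against 0.0850 and 0.0806 FPKM in SHEP-21N. The 3 enzymes were thus abundant in BE(2)-C and below 0.1 FPKM in SHEP-21N. PNMT, which turns noradrenaline into adrenaline, stood only at 1.76, 2.99 and 1.16 FPKM in BE(2)-C and was listed at 0 in SHEP-21N. SLC6A2, the noradrenaline transporter through which MIBG enters neuroblastoma cells, stood at 97.3, 101 and 99.7 FPKM in BE(2)-C and was listed at 0 in SHEP-21N. Among granule proteins, SCG2 stood at 222, 199 and 218 FPKM in BE(2)-C, against 0.321 and 0.337 FPKM in SHEP-21N, and CHGB at 170, 188 and 167 FPKM, against 0.667 and 0.611 FPKM. The 2 lower members were CPE, a peptide-processing carboxypeptidase, at 0.646, 0.686 and 0.626 FPKM in BE(2)-C against 45.03 and 40.8 FPKM in SHEP-21N, and MAOA, which breaks monoamines down, with a difference of -1.53. SLC18A2, a vesicular monoamine transporter, did not overlap between lines but missed the size (0.81).

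Neuronal cytoskeleton and RNA-binding genes showed the same side with several exceptions. Of 21 that met the rule, 10 through BE(2)-C alone and 1 through SHEP-21N alone, 16 were higher and 1 lower, with a median difference of 3.55. PRPH, the intermediate filament of peripheral neurons, stood at 159, 232 and 155 FPKM in BE(2)-C, against 0 and 0.0317 FPKM in SHEP-21N. GAP43, a growth-cone protein, stood at 122, 147 and 113 FPKM in BE(2)-C, against 0.241 and 0.137 FPKM in SHEP-21N. INA, another neuronal intermediate filament, stood at 83.5, 69.9 and 79.4 FPKM in BE(2)-C and was listed at 0 in SHEP-21N. Not every neuronal gene was low in SHEP-21N: UCHL1, a neuronal ubiquitin hydrolase, stood at 497, 721 and 494 FPKM in BE(2)-C and at 913 and 967 FPKM in SHEP-21N (difference -0.74, not called). MAP1B overlapped between lines, at 52.4, 21.7 and 53.2 FPKM in BE(2)-C against 31.3 and 26.4 FPKM in SHEP-21N, with its low value in BE(2)-C library 1. RTN1, a reticulon of the neuronal endoplasmic reticulum, was the 1 member called lower (-2.55). ELAVL2, at -0.96, was called lower without BE(2)-C library 0 (-1.02), without BE(2)-C library 2 (-1.07) or without SHEP-21N library 2 (-1.02).

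Of 17 synaptic vesicle and release genes that met the rule, 10 through BE(2)-C alone and 1 through SHEP-21N alone, 13 were higher in BE(2)-C and none lower, with a median difference of 3.24. CPLX2, a complexin of regulated release, stood at 125, 121 and 121 FPKM in BE(2)-C, against 0 and 0.0100 FPKM in SHEP-21N. SYP, synaptophysin, stood at 54.7, 69.3 and 53.5 FPKM in BE(2)-C, against 0.358 and 0.462 FPKM in SHEP-21N. General parts of the release machinery did not separate the lines: STX1A stood at 8.89, 10.9 and 8.39 FPKM in BE(2)-C and 9.22 and 8.79 FPKM in SHEP-21N, and SV2A at 25.4, 23.8 and 26.0 FPKM and 24.4 and 26.7 FPKM, both overlapping.

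The mesenchymal transcription factors were mostly lower in BE(2)-C, but the best-known regulators of epithelial-mesenchymal transition were divided. Of 24 in the list 16 met the rule, 8 of them through SHEP-21N alone, and 10 were lower and 2 higher, with a median difference of -1.48. PRRX1, a homeodomain factor that marks mesenchymal neuroblastoma cells, stood at 0, 0 and 0.0236 FPKM in BE(2)-C, against 29.6 and 24.7 FPKM in SHEP-21N (-4.80). TWIST2 was listed at 0 in BE(2)-C and stood at 12.1 and 12.5 FPKM in SHEP-21N. RUNX1, NR3C1 (the glucocorticoid receptor), BHLHE41, SIX4, FOXC1, TBX18 and ID1 were lower by 3.31, 2.80, 1.79, 1.73, 1.57, 1.39 and 1.25 on the log2 scale. ZEB1 went the other way, at 20.7, 8.87 and 20.3 FPKM in BE(2)-C against 1.48 and 1.22 FPKM in SHEP-21N (2.82). TWIST1, the target of the uninduced hairpin, stood at 57.9, 74.6 and 62.1 FPKM in BE(2)-C and 29.8 and 30.0 FPKM in SHEP-21N (1.08), a call that was lost without BE(2)-C library 1 (0.98). SNAI2, ZEB2 and SOX9 differed by 0.28 or less in size, and SNAI1, at -0.76, was not called. The other 8 members were below the rule.

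AP-1 subunits were divided within their families. Of 10 that met the rule, 2 through SHEP-21N alone, 5 were lower in BE(2)-C and 1 higher, with a median difference of -0.84. FOSL1, the FRA1 subunit of invasive mesenchymal cells, stood at 0.0479, 0 and 0 FPKM in BE(2)-C, against 115 and 122 FPKM in SHEP-21N (-6.88). FOSL2 stood at 4.01, 2.22 and 4.20 FPKM in BE(2)-C, against 18.8 and 20.2 FPKM in SHEP-21N (-2.22). MAFK, ATF3 and BATF3 were lower by 4.41, 1.27 and 1.03 on the log2 scale, the last no longer called without BE(2)-C library 2 (-0.97). JUNB, the 1 higher subunit at 1.07, was not called without BE(2)-C library 1 (0.94) or SHEP-21N library 1 (0.96). JUN stood at 14.4, 16.1 and 15.1 FPKM in BE(2)-C and 23.3 and 25.5 FPKM in SHEP-21N (-0.65, not called). FOS (0.71), JUND (0.90) and MAFF (-0.16) were not called either.

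Genes of the YAP and TEAD axis of the Hippo pathway were mostly lower in BE(2)-C. YAP and TAZ are co-activators that enter the nucleus when Hippo kinases are off and act through TEAD factors; of 18 genes in this list, all of which met the rule, 15 met it through SHEP-21N alone and 15 were lower, with a median difference of -4.70. YAP1 itself stood at 0.0952, 0.0160 and 0.0625 FPKM in BE(2)-C, against 26.3 and 24.5 FPKM in SHEP-21N (-4.64). WWTR1, which encodes TAZ, stood at 0.249, 0.109 and 0.0939 FPKM in BE(2)-C, against 31.6 and 28.9 FPKM in SHEP-21N (-4.77). Both co-activators were thus below 0.3 FPKM in every BE(2)-C library. TEAD4 and TEAD2 were lower by 5.37 and 4.50, whereas TEAD1, at 22.4, 8.81 and 23.5 FPKM in BE(2)-C and 15.5 and 12.3 FPKM in SHEP-21N, overlapped and TEAD3 differed by -0.34. Of the targets whose promoters are shown above, CTGF stood at 0.131, 0 and 0.0210 FPKM in BE(2)-C, against 64.7 and 68.4 FPKM in SHEP-21N (-6.01), and ANKRD1 at 0.0396, 0.0431 and 0.0507 FPKM, against 33.2 and 29.1 FPKM (-4.94). CYR61 stood at 0.151, 0.0913 and 0.129 FPKM in BE(2)-C, against 260 and 273 FPKM in SHEP-21N (-7.90), and AXL, a receptor kinase, at 0.0699, 0.0761 and 0.0597 FPKM, against 87.4 and 94.1 FPKM (-6.42). AMOTL1, an angiomotin that holds YAP in the cytoplasm, was the 1 member called higher (1.04), a call lost without BE(2)-C library 0 (0.90) or library 2 (0.91).

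Extracellular matrix genes were lower in BE(2)-C in 16 of 22 that met the rule (11 through SHEP-21N alone and 1 through BE(2)-C alone) and higher in 2, with a median difference of -3.31. COL3A1, a fibrillar collagen, stood at 0.437, 0.296 and 0.356 FPKM in BE(2)-C, against 152 and 159 FPKM in SHEP-21N (-6.84). FN1, fibronectin, stood at 0.241, 0.112 and 0.308 FPKM in BE(2)-C, against 65.9 and 64.8 FPKM in SHEP-21N (-5.77). TNC, tenascin C, was listed at 0 in BE(2)-C and stood at 30.2 and 32.9 FPKM in SHEP-21N. These collagens and glycoproteins were at or below 0.5 FPKM in every BE(2)-C library. COL1A2, COL6A3 and LOX, further matrix genes, were under 1 FPKM in both lines. FBN1 (1.75) and BGN (1.25), a fibrillin and a small proteoglycan, were higher in BE(2)-C, and COL6A2 and DCN differed by -0.23 and 0.19.

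Actin-binding and mesenchymal cytoskeleton genes followed: 15 of 22 that met the rule were lower in BE(2)-C and none higher, with a median difference of -2.13, and 18 of the 22 met the rule in both lines. TPM2, a tropomyosin of stress fibres, stood at 0.638, 0.683 and 0.729 FPKM in BE(2)-C, against 263 and 291 FPKM in SHEP-21N (-7.37). TAGLN, transgelin, stood at 0.0735, 0.3996 and 0.188 FPKM in BE(2)-C, against 59.1 and 71.6 FPKM in SHEP-21N (-5.77). FLNC, a filamin, stood at 6.93, 5.15 and 7.13 FPKM in BE(2)-C, against 326 and 363 FPKM in SHEP-21N (-5.55). VIM, vimentin, was abundant in both lines, at 78.2, 94.2 and 72.2 FPKM in BE(2)-C and 469 and 510 FPKM in SHEP-21N (-2.58). S100A6 overlapped, at 642, 1058 and 652 FPKM in BE(2)-C and 666 and 735 FPKM in SHEP-21N.

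**Figure D4:**
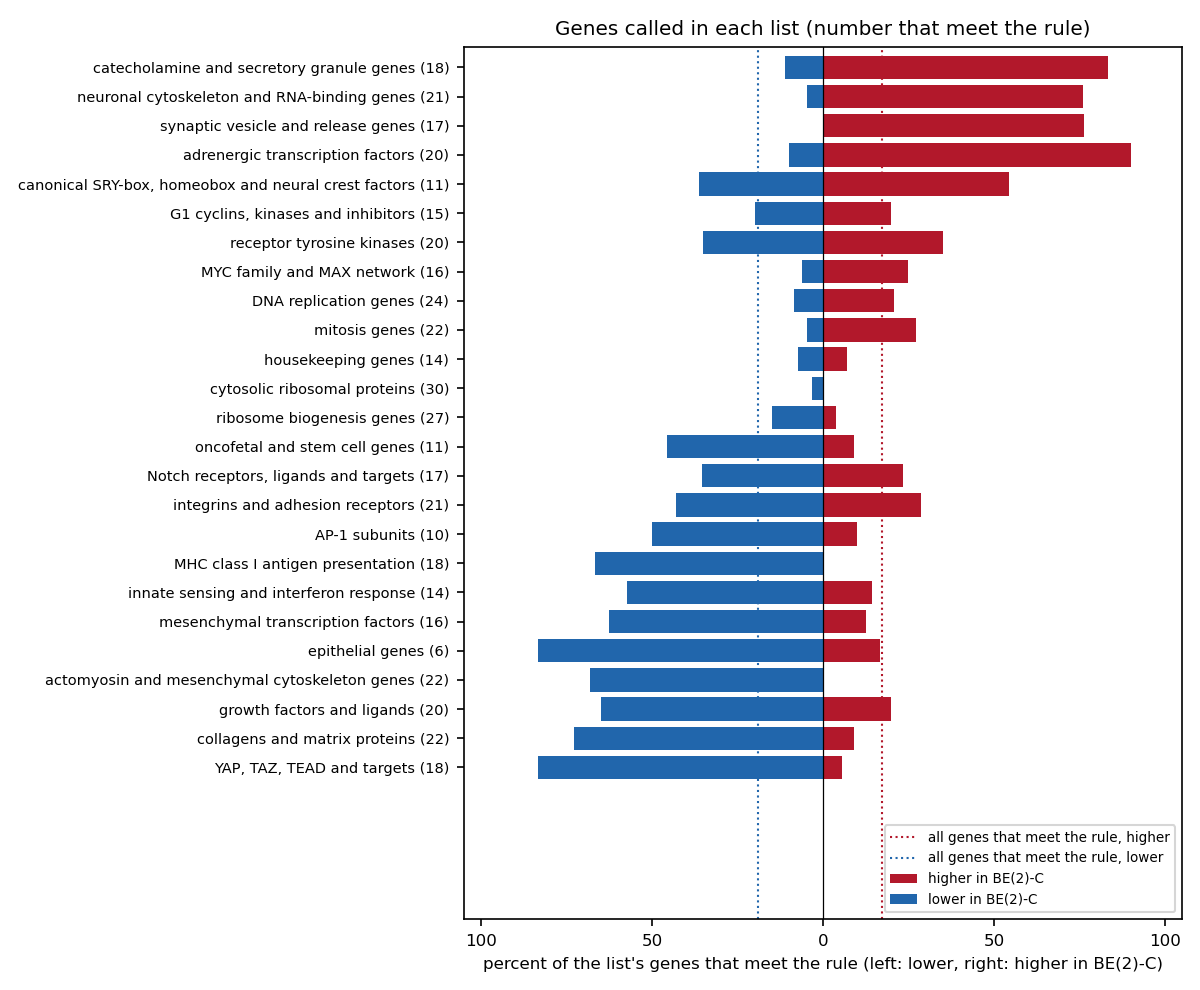
Percent of the genes that met the rule in each list (number in brackets) called lower (left) or higher (right) in BE(2)-C; dotted lines mark the same over all 12762 genes, 18.9% and 17.3%. Lists are ordered by median difference, from catecholamine genes at the top to YAP and TEAD genes at the bottom; lists with fewer than 5 such genes, and 1 other, are left out.

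Adhesion receptors, receptor kinases and their ligands exchanged members between lines. Among 21 integrins and adhesion receptors 6 were higher in BE(2)-C and 9 lower, beside 17.3% and 18.9% over all genes. Of the 21, 5 met the rule through BE(2)-C alone and 8 through SHEP-21N alone. L1CAM, a neural adhesion molecule, stood at 166, 140 and 169 FPKM in BE(2)-C, against 0.0679 and 0.107 FPKM in SHEP-21N (7.19), and NCAM1 at 37.6, 26.1 and 37.8 FPKM in BE(2)-C and listed at 0 in SHEP-21N. CAV1, the caveolae coat protein, stood at 0, 0.0171 and 0.0603 FPKM in BE(2)-C, against 112 and 106 FPKM in SHEP-21N (-6.74). CD44, a hyaluronan receptor, stood at 0.491, 0.3999 and 0.501 FPKM in BE(2)-C, against 85.7 and 89.4 FPKM in SHEP-21N (-5.92). The other 4 higher genes were CDH11, a mesenchymal cadherin, at 17.5, 11.05 and 17.7 FPKM in BE(2)-C and listed at 0 in SHEP-21N, the tetraspanin CD9 (4.78), and the integrins ITGA9 (3.84) and ITGA1 (2.72). ITGA3 was among the lower ones (-6.55).

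Among 20 receptor tyrosine kinases that met the rule 7 were higher in BE(2)-C and 7 lower, beside 17.3% and 18.9% over all genes. Of the 20, 4 met the rule through BE(2)-C alone and 4 through SHEP-21N alone, which fixed the direction of any call. RET, the receptor of GDNF-family ligands, stood at 41.1, 34.6 and 43.9 FPKM in BE(2)-C and was listed at 0 in SHEP-21N. ALK, a neuroblastoma oncogene, stood at 3.20, 2.03 and 3.43 FPKM in BE(2)-C and was listed at 0 in SHEP-21N. MET, the HGF receptor, was listed at 0 in BE(2)-C and stood at 23.3 and 16.1 FPKM in SHEP-21N. EPHA2 stood at 1.45, 1.49 and 1.44 FPKM in BE(2)-C, against 80.0 and 87.9 FPKM in SHEP-21N (-5.11). RET and ALK were thus at 0 in SHEP-21N, and MET at 0 and AXL and EPHA2 low in BE(2)-C.

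Of 20 growth factors and ligands that met the rule, 2 through BE(2)-C alone and 10 through SHEP-21N alone, 13 were lower in BE(2)-C and 4 higher, with a median difference of -2.79. MDK, midkine, stood at 12.3, 20.2 and 14.6 FPKM in BE(2)-C, against 718 and 765 FPKM in SHEP-21N (-5.50), whereas PTN, its relative pleiotrophin, stood at 32.5, 35.6 and 33.0 FPKM in BE(2)-C, against 5.63 and 5.91 FPKM in SHEP-21N (2.36). IGF2 stood at 120, 130 and 125 FPKM in BE(2)-C, against 0.180 and 0.128 FPKM in SHEP-21N (6.77). FGF5 was listed at 0 in BE(2)-C and stood at 59.9 and 54.8 FPKM in SHEP-21N. The other 2 higher ligands were HGF (2.51) and CXCL12 (1.42), and VEGFC and PDGFC were listed at 0 in BE(2)-C.

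Notch receptors were low in BE(2)-C beside its high DLK1. Of 17 genes of the pathway that met the rule, 2 through BE(2)-C alone and 6 through SHEP-21N alone, 4 were higher and 6 lower. The shares over all genes were 17.3% and 18.9%. NOTCH2 stood at 0.0342, 0.0203 and 0.0915 FPKM in BE(2)-C, against 35.3 and 35.3 FPKM in SHEP-21N (-5.12). NOTCH3 and NOTCH1 were lower by 3.53 and 3.43, and HES4, a target, was listed at 0 in BE(2)-C against 11.9 and 15.3 FPKM in SHEP-21N. All 3 receptors were below 0.5 FPKM in BE(2)-C. The target HEY1, also counted among the adrenergic factors, stood at 13.4, 13.52 and 12.9 FPKM in BE(2)-C, against 0.555 and 0.814 FPKM in SHEP-21N (3.09). MAML3 (1.68) and the target HES1 (1.03) were also called higher. The HES1 call was lost without BE(2)-C library 1 (0.94) or SHEP-21N library 1 (0.95).

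MYCN was close between the lines and MYC was not. MYCN stood at 889, 902 and 910 FPKM in BE(2)-C (mean 900.2 ± 10.8, SD, n = 3), against 715 and 742 FPKM in SHEP-21N (728 ± 19.6, SD, n = 2), a log2 difference of 0.31 that became 0.52 on the authors' spike-in scale. The libraries did not overlap, but the difference was below the size set for a call. MYC stood at 0.0972, 0.159 and 0.104 FPKM in BE(2)-C, against 2.10 and 2.25 FPKM in SHEP-21N (-1.50). MYCNOS, which lies antisense to MYCN, stood at 39.8, 60.6 and 36.3 FPKM in BE(2)-C, against 11.1 and 13.9 FPKM in SHEP-21N (1.76); the kit was stranded per the labels, but the sources used here do not say whether the counting used the strand, so reads of the pair may not be told apart. Across the list of the MYC family and MAX network, in which MYCNOS is counted, 16 members met the rule. Of these, 4 (MYCNOS among them) were higher and 1 (MYC) lower, with a median difference of 0.28. The shares over all genes were 17.3% and 18.9%. MXD4 (1.79), MGA (1.22) and MXD1 (1.01), partners of MAX that oppose MYC, were the other 3 higher members, and MXD1 lost its call without BE(2)-C library 0 (0.93), BE(2)-C library 2 (0.95) or SHEP-21N library 1 (0.98). MAX stood at 45.4, 48.2 and 44.2 FPKM in BE(2)-C and 39.1 and 41.9 FPKM in SHEP-21N (0.18). MYCL1 (-0.85), MLXIP (-0.86), MXI1 (0.82), MLX (0.68), MXD3 (0.58), MNT (-0.33) and USF1 (-0.47) were not called, although MLXIP was called lower without BE(2)-C library 2 (-1.04).

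Genes that MYC proteins are known to drive, ribosome biogenesis among them, stood close together. Of 27 ribosome biogenesis genes 1 was higher and 4 lower in BE(2)-C, with a median difference of -0.42; on the spike-in scale 3 were higher and the median was -0.22. RRP12 was the furthest, at 11.9, 15.0 and 11.9 FPKM in BE(2)-C against 61.2 and 67.7 FPKM in SHEP-21N (-2.23). Of 30 cytosolic ribosomal proteins 1 was called, RPL8, at 1179, 1830 and 1065 FPKM in BE(2)-C and 2873 and 3234 FPKM in SHEP-21N (-1.21), and it was not called on the spike-in scale. The median of the ribosomal proteins was -0.17, and turned to 0.05 on the spike-in scale. Of 14 housekeeping genes 1 (TFRC, the transferrin receptor) was higher and 1 (ACTB) lower, both near the size limit, with calls lost without SHEP-21N library 2 (0.84 and -0.96); their median of -0.02 likewise turned sign under scaling. These lists are short of the 17.3% and 18.9% called over all genes.

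DNA replication and mitosis genes were at 1 FPKM or more in both lines throughout. Of 24 replication genes 5 were higher and 2 lower in BE(2)-C, with a median difference of 0.25, and of 22 mitosis genes 6 were higher and 1 lower, with a median of -0.01 that turned to 0.20 on the spike-in scale. TOP2A, topoisomerase II, stood at 225, 139 and 226 FPKM in BE(2)-C, against 41.4 and 28.1 FPKM in SHEP-21N (2.45). CDC20, an activator of the anaphase-promoting complex, stood at 74.0, 100 and 71.3 FPKM in BE(2)-C, against 225 and 255 FPKM in SHEP-21N (-1.56). GINS2, a replicative helicase subunit, stood at 138, 203 and 131 FPKM in BE(2)-C, against 56.6 and 61.6 FPKM in SHEP-21N (1.37). The 5 of 24 replication and 6 of 22 mitosis genes called higher stand beside a background of 17.3%, and the lower ones beside 18.9%. KIF11 and BUB1B were among the mitosis genes whose calls were lost when single libraries were left out (0.84 and 0.92 without SHEP-21N library 2).

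Cell cycle inhibitors held some of the larger differences among growth-control genes. CDKN2A, which encodes p16 and ARF, stood at 20.5, 32.5 and 17.8 FPKM in BE(2)-C and was listed at 0 in SHEP-21N, in all 20 of its libraries. CDKN1A, the p21 inhibitor, stood at 1.22, 1.37 and 1.03 FPKM in BE(2)-C, against 48.1 and 54.6 FPKM in SHEP-21N (-4.57). CCND1, cyclin D1, was higher in BE(2)-C, at 159, 128 and 155 FPKM against 52.2 and 52.8 FPKM in SHEP-21N (1.46). Among 15 G1 genes 3 were higher and 3 lower, close to the 17.3% and 18.9% called over all genes. The higher count was 5 without BE(2)-C library 1 or without SHEP-21N library 1.

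Antigen presentation and innate sensing were lower in BE(2)-C. Of 18 genes of MHC class I presentation that met the rule, 7 through SHEP-21N alone, 12 were lower and none higher, with a median of -1.29. PSMB8, an immunoproteasome subunit, stood at 0.544, 0.801 and 0.691 FPKM in BE(2)-C, against 21.5 and 25.1 FPKM in SHEP-21N (-3.85). TAP1, a peptide transporter, stood at 0.0892, 0.0972 and 0.0653 FPKM in BE(2)-C, against 8.10 and 8.89 FPKM in SHEP-21N (-3.13). HLA-C stood at 30.0, 45.3 and 29.6 FPKM in BE(2)-C, against 166 and 178 FPKM in SHEP-21N (-2.29), whereas the light chain B2M, at 751, 899 and 735 FPKM in BE(2)-C against 642 and 676 FPKM in SHEP-21N, was not called. The processing machinery was thus further apart than the light chain, and HLA values are uncertain because these near-identical, polymorphic genes share reads. Of 14 innate sensing and interferon genes, 5 of which met the rule through SHEP-21N alone and 2 through BE(2)-C alone, 8 were lower and 2 higher. TMEM173, which encodes STING, stood at 0.302, 0.465 and 0.319 FPKM in BE(2)-C, against 10.7 and 12.2 FPKM in SHEP-21N (-3.19). OAS1 and OAS3, which make the activator of RNase L, were the 2 higher members, OAS1 at 6.75, 7.71 and 7.36 FPKM in BE(2)-C and 0.0800 and 0.0408 FPKM in SHEP-21N (2.96) and OAS3 by 1.76.

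Most of the called oncofetal genes were lower in BE(2)-C, with LIN28B the exception. Of 11 that met the rule, 2 through SHEP-21N alone and 1 through BE(2)-C alone, 5 were lower and 1 higher. Over all genes 18.9% were lower and 17.3% higher. LIN28B, which blocks let-7 processing, stood at 19.7, 10.9 and 20.1 FPKM in BE(2)-C, against 1.17 and 0.738 FPKM in SHEP-21N (3.16). HMGA2, a let-7 target, and IGF2BP2 were listed at 0 in BE(2)-C and stood at 20.1 and 19.9 FPKM and at 24.0 and 22.1 FPKM in SHEP-21N. The count of higher members was 2 after division by library medians and 3 on the spike-in scale or without BE(2)-C library 1.

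Homeobox and neural crest factors outside the lists above also differed: of 11 that met the rule, 4 through BE(2)-C alone and 2 through SHEP-21N alone, 6 were higher in BE(2)-C and 4 lower. Over all genes 17.3% were higher and 18.9% lower. TLX2, a homeobox factor of sympathetic and enteric neurons, stood at 42.4, 59.9 and 44.2 FPKM in BE(2)-C and was listed at 0 in SHEP-21N, as was EBF3 at 11.7, 8.72 and 12.2 FPKM. TFAP2A, a neural crest factor, stood at 0, 0.0259 and 0 FPKM in BE(2)-C, against 10.3 and 10.4 FPKM in SHEP-21N (-3.49). The lines thus carried different AP-2 genes, TFAP2B in BE(2)-C and TFAP2A in SHEP-21N. MSX1 was lower (-3.61) and MSX2 higher (1.41).

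Most markers of other cell types were below the rule in both lines, and keratins were the most abundant of those that met it. Of 15 epithelial genes 6 met the rule, and the summed level of the list ran from 9.84 to 15.2 FPKM in BE(2)-C and 879 to 1014 FPKM in SHEP-21N, mostly KRT19 in BE(2)-C and KRT8 and KRT18 in SHEP-21N. The junction genes CLDN4 (-1.91) and OCLN (-1.81) and the keratin KRT7 (-1.67) were lower in BE(2)-C. The defining epithelial genes EPCAM, CDH1, GRHL2 and ESRP1 were under 0.4 FPKM in all 5 libraries, and ESRP1 was listed at 0. KRT19 went the other way, at 8.97, 12.7 and 8.05 FPKM in BE(2)-C against 0.286 and 0.163 FPKM in SHEP-21N (3.13). Of 12 Schwann and glial genes 2 met the rule, S100B (2.54) and PMP22 (-1.09), with SOX10 listed at 0 in all 5 libraries; the list summed to 17.6 to 21.2 FPKM in BE(2)-C and 29.4 to 30.0 FPKM in SHEP-21N, most of it PMP22. Of 12 blood and endothelial genes CD68 (-1.96) and CDH5 met it, and of 7 melanocyte genes MITF did (-1.24), with TYR listed at 0.

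The difference between the lines was then set against both time courses, in which doxycycline induced the hairpin in BE(2)-C (0.5 µg/ml, up to 48 h) or shut MYCN off in SHEP-21N (0.2 µg/ml, up to 24 h). Of the 2209 genes called higher, 1844 (83.5%) did not overlap between all 18 BE(2)-C and all 20 SHEP-21N libraries. Of the 2417 called lower, 2233 (92.4%) did not. Of all 12762 genes 49.2% did not overlap, against 78.2% over the untreated libraries alone. Called genes were picked for no overlap in the untreated libraries, which are included here, so their larger shares are partly built in. MYCN fell to a mean of 15.5 FPKM at 24 h in SHEP-21N while its level in BE(2)-C ran from 772 to 936 FPKM over all libraries. PHOX2A reached at most 0.0326 FPKM and TH at most 0.0450 FPKM in any SHEP-21N library, while every BE(2)-C library held at least 165.9 FPKM of PHOX2A and 44.7 FPKM of TH. PRRX1 stayed at 24.7 FPKM or more in SHEP-21N and at most 0.0327 FPKM in BE(2)-C. TWIST1 crossed, with means from 46.5 FPKM at 3 h to 18.1 FPKM at 48 h in BE(2)-C under the hairpin, and a range of 24.6 to 31.9 FPKM in SHEP-21N. MYC also crossed, because it stood at 9.69 FPKM in 1 of the 3 BE(2)-C libraries at 12 h and at most 0.253 FPKM in the other 17, beside 1.96 to 9.73 FPKM in SHEP-21N, where the mean reached 9.30 FPKM at 16 h.

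That 12 h library stood apart in other genes too: 37 genes reached 1 FPKM or more in it and stayed under 0.2 FPKM in the other 17 BE(2)-C libraries, against at most 6 such genes in any other library. They include HMGA2 at 1.79 FPKM, MAGEA3 at 2.27 FPKM and RTN1 at 5.17 FPKM. Of the 37 genes, 10 were under 0.2 FPKM in all SHEP-21N libraries. ANXA1 stood at 0.133 FPKM and YAP1 at 0.149 FPKM there, beside at most 0.124 and 0.104 FPKM in the other 17. PRRX1 stood at 0.0104 FPKM, beside at most 0.0327 FPKM. The source of this RNA was not tested. Without the 12 h library and without a 3 h library with haemoglobin RNA, 1845 higher and 2242 lower genes did not overlap. The untreated comparison uses neither library.

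**Figure D5:**
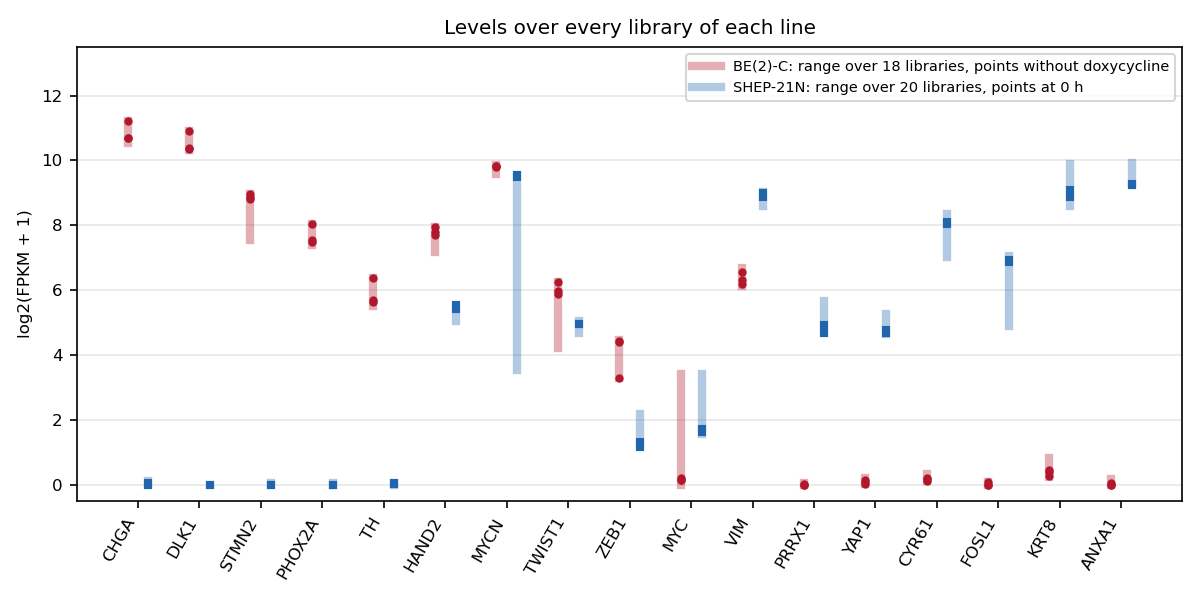
Levels of 17 genes as log2(FPKM + 1) over every library of each line: bars give the range over 18 BE(2)-C (red, left) and 20 SHEP-21N libraries (blue, right), circles the untreated BE(2)-C and squares the 0 h SHEP-21N libraries. The ranges stay apart for every gene shown but TWIST1 and MYC; the long SHEP-21N bar of MYCN is its shutdown.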

How the data were processed

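RNA was measured as polyadenylated RNA from stranded libraries with ERCC spike-ins added at lysis, per the labels' protocols. The authors deposited FPKM per gene symbol, in 1 unnormalised and 1 spike-in-rescaled table for each experiment; HISAT, Cufflinks 2.0.0 and hg19 are named in the submitters' processing notes. How the rescaling was done, and whether strand was used in counting, the sources used here do not say. Columns were matched to groups by name, and their end numbers name libraries only.

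Computed here, with Python 3.11.15, pandas 2.3.3, numpy 2.4.6 and matplotlib 3.10.9: 92 spike-ins were left out, unnormalised FPKM of the 2 lines were joined by symbol, and differences of mean log2(FPKM + 1) were taken. The design held a limma test only for tables not scaled across their libraries; each library lay within 2% of its table's geometric mean, so the call was by no overlap and size alone. The call rule was tried on simulated data with 1 noise level for all genes. Separate scaling of the tables and transcript length were not simulated, so that trial does not cover them. Transcript lengths are medians of GENCODE 29 protein-coding transcripts, found for 94.4% of genes at 1 FPKM or more in both lines.

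The members and gene lists were chosen with earlier results of these data known. Named genes are the 12 largest called differences each way (small and uncharacterised RNAs, XIST and Y-linked genes left out), every adrenergic, mesenchymal and MAX-network factor, and up to 6 members of the other lists by size and 3 with the smallest difference. Genes named beyond that rule (TH, CPE, MAOA, PNMT and exceptions to a list's direction among them), the HOX, cancer-testis, retinoid and neuropeptide families and the promoters shown were chosen after their values were seen. Alternatives were another pseudocount, other filters, 3 other scalings, a larger size, each library left out, all libraries, and transcript length. Some genes and 1 list that these rules would name are not reported here.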

Additional observations from a re-analysis of the deposited data

Results flagged for a closer look

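HBB, HBA1 and HBA2, which encode haemoglobin chains and were under 1 FPKM in all 5 untreated libraries, appeared in a library outside the untreated comparison. One BE(2)-C library at 3 h of doxycycline held 38.4 FPKM of HBB, 11.9 FPKM of HBA1 and 14.1 FPKM of HBA2. The other 17 BE(2)-C libraries held at most 0.189, 0.430 and 0.398 FPKM of these genes, and the 20 SHEP-21N libraries at most 0.106, 0.396 and 0.296 FPKM. HBA1 and HBA2 are near-identical, so their split is uncertain. The source of this RNA was not tested.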

How the results depend on the processing

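Of the 14 alternatives, only the 3 other scalings could reverse a call, because the rest keep the order of the same unnormalised values. Under those 3, no called gene was called in the opposite direction. Higher and lower counts stayed within 1.5 times of 2209 and 2417 except at a log2 difference of at least 2 (724 and 955). With a single library left out, they ran from 2070 to 2428 higher and from 2379 to 2537 lower; the calls shared with the full set ran from 2026 (without SHEP-21N library 2) to 2158 higher and from 2309 (without SHEP-21N library 2) to 2368 lower. On the spike-in scale the MYCN difference was 0.52. Of the gene lists there, AP-1 subunits had 2 higher members, oncofetal genes 3 and ribosome biogenesis genes 3, and DNA replication, cytosolic ribosomal, housekeeping and Schwann genes had 0 lower. After division by library medians oncofetal genes had 2 higher members. With 1 library left out, lower members ran from 1 to 2 among adrenergic factors, neuronal cytoskeleton genes and the MAX network, and from 0 to 1 among housekeeping genes; higher members ran from 1 to 3 among mesenchymal factors, 0 to 2 among AP-1 subunits and ribosome biogenesis genes, 0 to 1 among YAP and TEAD genes and housekeeping genes, 1 to 3 among oncofetal genes and 2 to 5 among G1 genes. The cause was not tested. With the median of each of 10 transcript length classes taken off, chosen after seeing the data, 2203 genes were higher and 2341 lower. No paired analysis was possible because the comparison comes from no test, and the columns are numbered from 0 and the labels from 1, with no statement of which belongs to which; the replicate block was not run. Depth is unknown, so the error of low values is too; values near 0 are no evidence of absence.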

Other observations

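The HOX clusters, which keep positional identity along the body axis, differed between the lines by cluster. Of 10 HOXB and 11 HOXA genes in the tables, 8 and 4 met the rule, each through SHEP-21N alone, so that their direction was fixed by the rule. The 8 HOXB genes were listed at 0 in every untreated BE(2)-C library and stood between 2.06 and 40.7 FPKM in SHEP-21N, led by HOXB2 at 39.0 and 40.7 FPKM and HOXB4 at 24.2 and 24.6 FPKM. The 4 HOXA genes were at most 0.0526 FPKM in BE(2)-C and 1.28 to 4.28 FPKM in SHEP-21N. HOXC genes were mixed: of 8 that met the rule 3 were called higher in BE(2)-C and 1 lower, beside 17.3% and 18.9% over all genes. Of the 8, 1 was listed at 0 in both SHEP-21N libraries and 1 stayed under 1 FPKM in all 18 BE(2)-C libraries. HOXC4 stood at 21.5, 23.1 and 22.0 FPKM in BE(2)-C and 16.8 and 16.7 FPKM in SHEP-21N (0.38), and HOXC9 overlapped. HOXC10 was called higher in BE(2)-C, at 26.7, 29.02 and 27.1 FPKM against 1.30 and 1.15 FPKM in SHEP-21N (3.69), as were HOXC5 (2.61) and HOXC11. In the HOXD cluster HOXD3 was higher in BE(2)-C (2.17), HOXD10, HOXD11 and HOXD13 were lower (-2.10, -3.10 and -3.08), and HOXD8 and HOXD9 were not called. The 12 HOXA and HOXB genes stayed under 1 FPKM in all 18 BE(2)-C libraries.

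Cancer-testis genes, germline genes of the X chromosome that tumours can switch on, stood high in SHEP-21N. Of 25 MAGE, 29 GAGE and XAGE and 3 CTAG genes in the tables, 9, 12 and 3 met the rule, each through SHEP-21N alone, so that their direction was fixed by the rule. In BE(2)-C none of them exceeded 0.433 FPKM untreated, against up to 308 FPKM (CTAG2) in SHEP-21N; copies within these families share reads. The highest values of these families over all BE(2)-C libraries, 17.4 FPKM of GAGE12B and 2.27 FPKM of MAGEA3, stood in the 12 h library that stands apart; the other 17 held at most 0.349 and 0.103 FPKM of these genes. Of 15 retinoid genes that met the rule, 4 were called higher in BE(2)-C and 9 lower, beside 17.3% and 18.9% over all genes. The binding protein CRABP1, at 70.3, 97.2 and 61.9 FPKM in BE(2)-C, was listed at 0 in SHEP-21N. CRABP2 stood at 27.2, 38.9 and 29.8 FPKM in BE(2)-C against 563 and 611 FPKM in SHEP-21N (-4.17). RARB, a retinoic acid receptor and target, stood at 0.0409, 0.0445 and 0.0349 FPKM in BE(2)-C against 9.85 and 9.03 FPKM in SHEP-21N (-3.33). Besides VIP, the neuropeptides NPY, GAL and SST were higher in BE(2)-C, NPY at 61.4, 95.7 and 59.0 FPKM and listed at 0 in SHEP-21N. Of 10 neuropeptide genes in the tables these 4 met the rule, each through BE(2)-C alone, so that their direction was fixed by the rule. The imprinted MEG3, neighbour of DLK1, stood at 19.8, 27.6 and 25.3 FPKM in BE(2)-C and was listed at 0 in SHEP-21N. Of 4 imprinted genes of the DLK1-MEG3 and IGF2-H19 regions, all of which met the rule, 3 were called higher in BE(2)-C and 1 lower.

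Over genes at 1 FPKM or more in all 5 libraries, the median log2 difference ran by chromosome from -0.47 on chromosome 18 (127 genes) and -0.29 on chromosome 1 (974 genes) to 0.31 on chromosome 14 (332 genes) and 0.35 on chromosome 15 (312 genes), around a median of -0.01 over all 9746. On the spike-in scale these chromosomes stood at -0.28, -0.12, 0.48 and 0.51; DNA copy number was not analysed here. The AP-1 motif TGANTCA stood in the 250 bases before the start in 7.25% of promoters of genes called lower in BE(2)-C, 3.75% of those called higher, 4.32% of all that met the rule and 6.57% of all promoters, which is a count of letters with no test.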
